A study of Mus musculus with 2 samples.

Results

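The 7 genes of this account encode the DNA-binding subunits of the transcription factor NF-kB and a pair of its inhibitors. They are Nfkb1, Nfkb2, Rel, Rela, Relb, Nfkbia and Tnfaip3, taken by name, and all 7 were found among the 21827 protein-coding genes annotated in GENCODE M21. Each locus was the gene body with 50 kb on either side. The 7 loci held 71 of 38223 open chromatin peaks in replicate 2 and 35 of 17061 in replicate 3. Open chromatin was measured by DNase-seq, in which DNase I is let into isolated nuclei and the ends of the accessible DNA that it cuts are sequenced. The samples were 2 libraries of primary alpha-beta T cells, CD8-positive, naive and resting, from virgin male adult B6CASTF1/J mice, a hybrid of inbred strains, aged 2 months. The labels number them biological replicates 2 and 3, give both the same donor label and give each its own biosample label, so the spread between them may be technical. There was 1 group, no treatment and no control, so no conditions were compared and no p-value is given.

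In resting lymphocytes NF-kB is held in the cytoplasm. Dimers of RelA, c-Rel and RelB with the processed products of Nfkb1 and Nfkb2 are bound by inhibitors of the IkB family, of which the Nfkbia product is the best known. Signals from the antigen receptor or from receptors of the TNF family activate a kinase complex that marks the inhibitor for destruction, and the freed dimers enter the nucleus and bind kappaB sites. NF-kB raises transcription of Nfkbia and Tnfaip3, whose products then shut the pathway down, the first by capturing the dimers and the second by editing ubiquitin chains on upstream signalling proteins. In T cells Tnfaip3 is known as a brake on activation.

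The sequences below carry the kappaB matches in the promoter peaks. They were read from RefSeq on the GRCm38.p6 build, where promoter entries matched 5 of the 7 genes, and are written in the direction of transcription. Capitals mark matches to the wider kappaB consensus, of which the stringent form (GGGA, any pair of bases, then TTCC) is a subset. The mice carry a second parental genome, and only the reference strain's letters are given. The first lines show 30 bases around single matches, at Nfkbia chr12:55491947-55491976 and chr12:55492657-55492686, Nfkb2 chr19:46305695-46305724 and chr19:46304688-46304717, Rel chr11:23771042-23771071 and Tnfaip3 chr10:19015516-19015545 and chr10:19015403-19015432.
Nfkbia, inside the gene: ggtggggcacGGAAAGTCCCtgggcggctg
Nfkbia, at the start site: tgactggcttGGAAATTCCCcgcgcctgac
Nfkb2, downstream start site: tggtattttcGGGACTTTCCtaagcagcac
Nfkb2, upstream start sites: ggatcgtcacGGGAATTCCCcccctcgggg
Rel: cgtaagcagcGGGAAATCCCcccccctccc
Tnfaip3, farther from the start site: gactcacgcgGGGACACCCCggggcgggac
Tnfaip3, at the start site: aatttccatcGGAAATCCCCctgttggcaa
The stretches of 250 bases upstream of the RefSeq start sites of both inhibitors and of Rel follow, since these 3 promoters recur in the results. They lie on the minus strand at chr12:55492648-55492897 (Nfkbia), chr10:19015411-19015660 (Tnfaip3) and chr11:23770970-23771219 (Rel).
Nfkbia: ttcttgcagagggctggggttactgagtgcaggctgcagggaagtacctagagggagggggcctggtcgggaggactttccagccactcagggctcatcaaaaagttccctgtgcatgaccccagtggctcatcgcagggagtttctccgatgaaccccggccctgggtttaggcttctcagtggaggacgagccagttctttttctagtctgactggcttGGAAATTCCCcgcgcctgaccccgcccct
Tnfaip3: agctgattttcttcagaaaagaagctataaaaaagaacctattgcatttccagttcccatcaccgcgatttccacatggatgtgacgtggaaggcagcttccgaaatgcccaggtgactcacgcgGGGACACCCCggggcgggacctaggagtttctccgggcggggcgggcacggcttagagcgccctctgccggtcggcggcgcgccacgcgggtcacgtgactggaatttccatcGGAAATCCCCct
Rel: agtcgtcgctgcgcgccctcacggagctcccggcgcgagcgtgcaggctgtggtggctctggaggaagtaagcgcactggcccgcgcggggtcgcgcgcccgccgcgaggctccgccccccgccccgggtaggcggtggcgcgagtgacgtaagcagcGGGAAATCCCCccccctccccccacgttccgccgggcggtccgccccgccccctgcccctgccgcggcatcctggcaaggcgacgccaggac
The run of capitals in the Rel promoter holds a pair of overlapping matches. In the lines around single matches, the Rel match and the Nfkb2 match at the upstream start sites each overlap a further match. The last base of that further match is left in lower case there. The Nfkb2 match at the upstream start sites lies in a promoter peak of replicate 3 alone.

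The libraries differed in the number of peaks and in the scale of their weakest signals. The authors' signal value of each peak was a whole multiple of a single step within each library, within a tolerance of 0.05 of the step, for all 25650 values below 2 in replicate 2 and all 4539 in replicate 3. If a step stands for 1 sequenced tag, the depths were 1.34e+08 tags in replicate 2 and 2.21e+07 in replicate 3, a ratio of 6.05, but read counts were not used here and the scaling is not stated. The shorter of each library's 2 peak lists is called the stricter list and the longer one the permissive list. The stricter lists held 38223 peaks (median signal 1.26) in replicate 2 and 17061 (median 3.07) in replicate 3, and the footprint lists held 146244 and 29967 intervals. Among the markers of the labelled cells, Cd8b1 (a chain of the CD8 coreceptor), Zap70 (a kinase of the antigen receptor) and Klf2 (a factor of naive T cells) had a promoter peak in both libraries. Of 8 CD8 T cell markers, 2 had one in both libraries, 5 in replicate 2 alone and 1, Cd8a, in neither. Of 6 naive T cell markers the counts were 1, 3 and 2. No promoter peak was listed for any of 4 CD4 and helper, 4 B cell, 2 NK or 2 erythroid markers in either library, and 1 of 5 myeloid markers, Itgam, had one in replicate 2 alone at a signal of 0.657. A peak's signal cannot tell a site open in few cells from a site cut rarely in every cell.

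All 7 genes had a promoter peak in both libraries. A promoter peak was a stricter peak within 1000 bp of a protein-coding start site. Over all 21827 protein-coding genes, 8917 or 40.9% had one in both libraries (Wilson 95% interval 40.2 to 41.5%, counting error only). The shares of all genes were 50.5% in replicate 2 and 40.9% in replicate 3. The members' strongest promoter peaks had a median of 6.24 signal units in replicate 2 and 6.46 in replicate 3, against 3.75 and 4.65 over all genes with a promoter peak. Their median percentile among those genes was 75.1 in replicate 2 and 72.5 in replicate 3.

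The 7 promoters fell into 3 levels. Tnfaip3 stood alone at the top, at 14.3 in replicate 2 and 13.0 in replicate 3 for its promoter peak (13.6 ± 0.962, SD, n = 2), percentiles 99.4 and 99.2 of all genes with a promoter peak. Relb, Nfkbia and Nfkb2 lay between 6.24 and 7.45 and overlapped each other, so their order is not resolved by the 2 libraries. Rel, Rela and Nfkb1 lay between 2.19 and 3.95, below every value of the other 4 genes with this window.

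Among the subunits with a transactivation domain, Relb had the strongest promoter peak within 1000 bp. Its signal was 7.43 in replicate 2 and 6.46 in replicate 3 (6.95 ± 0.687). RelB acts mainly in the slower, non-canonical arm of the pathway, as partner of the Nfkb2 product. Rel, which encodes the subunit most typical of lymphocytes, had 3.95 and 3.88 (3.92 ± 0.0439), near the median promoter of replicate 2 (percentile 52.5) and below that of replicate 3 (percentile 37.7). Rela, the widely expressed subunit of the classical dimer, had 2.94 in replicate 2 and 3.93 in replicate 3 (3.43 ± 0.700), at percentiles 39.9 and 38.4. Rel and Rela overlapped, since the replicate 3 value of Rela, 3.93, lies between the values of Rel.

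The precursor subunits differed from each other. Nfkb2, whose product is processed in the non-canonical arm, had 6.24 in replicate 2 and 6.91 in replicate 3 (6.58 ± 0.471), at percentiles 75.1 and 77.2. Nfkb1, whose product is the usual partner of RelA, had 2.19 and 3.03 (2.61 ± 0.594), at percentiles 29.1 and 23.6, and was the lowest of the 7 in both libraries. The gap between both genes was larger than the spread within either. Nfkb1 and Rela did overlap, because the replicate 3 value of Nfkb1 exceeded the replicate 2 value of Rela.

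Of the inhibitors, Nfkbia reached 6.54 in replicate 2 and 7.45 in replicate 3 (6.998 ± 0.643), percentiles 77.6 and 82.0. These values come from different peaks, at the start site in replicate 2 and inside the gene in replicate 3, so the mean, the SD and the ratio between libraries mix both sites. Tnfaip3 was above Nfkbia in both libraries, and the values of the genes did not overlap. On the log2 scale the replicate 2 over replicate 3 ratio of the strongest promoter signal ran from -0.47 at Nfkb1 to 0.20 at Relb. Over all 16253 replicate 2 peaks found in replicate 3 its median was -0.13, with 5% to 95% of values from -0.83 to 0.49, so all 7 ratios lay inside that range. By percentile in both libraries, the promoters nearest to Tnfaip3 were those of Polr3e (15.0 and 13.3), Cfap20 (13.9 and 12.6) and Nfya (15.6 and 12.8), each at most 0.278 percentile points away. Those nearest to Nfkbia were Zfp318 (6.53 and 7.41) and, with the same values as each other, Cryzl1 and Itsn1 (6.56 and 7.36).

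**Figure D1:**
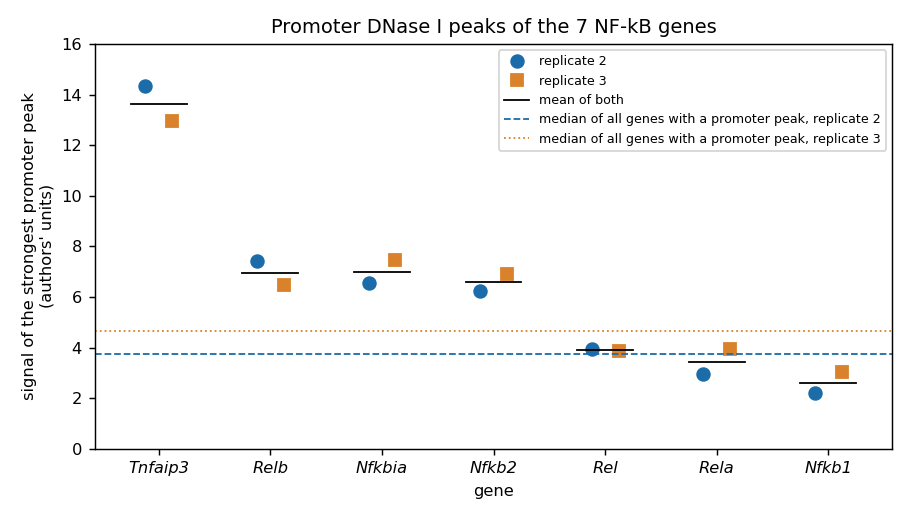
Signal of the strongest promoter peak (vertical axis, the authors' signal units) of each of the 7 genes in replicate 2 (circles) and replicate 3 (squares), with the mean of both as a short line and the median over all genes with a promoter peak as a dashed (replicate 2) or dotted (replicate 3) line. Tnfaip3 lies at 14.3 and 13.0, Relb, Nfkbia and Nfkb2 between 6.24 and 7.45, and Rel, Rela and Nfkb1 between 2.19 and 3.95.

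The promoter peaks sat at or near the start sites, and several genes had more than 1. The Tnfaip3 peak at chr10:19015361-19015580 was centred 60 bp upstream of the most upstream coding start site, and replicate 3 had its peak over the same bases. Nfkbia (chr12:55489410-55492647, minus strand) had a pair of promoter peaks in both libraries. The peak at the start site, chr12:55492481-55492760, had 6.54 in replicate 2 and 6.14 in replicate 3. The peak inside the gene, chr12:55491861-55492100, was centred 666 bp downstream and had 5.69 in replicate 2 and 7.45 in replicate 3. The start-site peak was thus higher in replicate 2 and the inner peak higher in replicate 3.

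Relb had its stronger peak inside the gene as well. The peak at chr7:19628481-19628760, centred 818 bp into the gene, had 7.43 in replicate 2 and 6.46 in replicate 3, and the peak 92 bp upstream of the start site had 3.54 in replicate 2 and 4.56 in replicate 3. The inner peak was the higher in both libraries. With a window of 500 bp the inner peak falls outside in replicate 2, while the wider replicate 3 peak of 6.46 still reaches into the window. The mean promoter signal of Relb becomes 4.998 in place of 6.95, a mean that then mixes both sites. In replicate 2 the Relb value is then 3.54, below the 3.95 of Rel, so the order of these genes and the gap between the middle and lower levels depend on the window there. Nfkb2 has 4 coding start sites, and promoter peaks lay close to a pair of them. These had 6.24 and 4.86 in replicate 2, and 6.91 and 6.10 in replicate 3.

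Rela and Nfkb1 had their strongest promoter peak over the start site in both libraries, and Rel in replicate 2. At Rel the replicate 2 peak covered chr11:23770681-23771260, while replicate 3 had 2 adjoining narrower peaks, at 3.88 and 2.48, that both lay upstream of the start site. Rel was also the 1 gene whose promoter peaks in the libraries did not overlap by 50% of each. Replicate 2 listed 3 further Rel peaks, at 2.66, 0.634 and 0.589, that overlapped no stricter peak of replicate 3. The peak of 2.66, chr11:23770581-23770980, overlapped the main replicate 2 peak and reached just past the start site. Those of 0.634 and 0.589 lay inside the gene. At Rela the peak chr19:5637301-5637840 had 2.94 in replicate 2 and 3.93 in replicate 3. At Nfkb1 the peak at chr3:135691381-135691620 had 2.19 in replicate 2 and 3.03 in replicate 3.

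Beyond the promoters the loci differed in how much open chromatin they held. Tnfaip3 had the most peaks in replicate 2 and Relb the most in replicate 3. In replicate 2 the stricter list had 21 peaks at Tnfaip3, 12 at Relb, 12 at Nfkbia, 9 at Rela, 7 at Nfkb2, 6 at Nfkb1 and 4 at Rel. In replicate 3 the counts were 3, 11, 3, 8, 6, 2 and 2 in the same order. Overlapping calls were counted separately. Merged into regions, they gave 17 at Tnfaip3, 8 at Rela and 3 at Rel in replicate 2, and 10 at Relb in replicate 3. The other counts stayed the same. Relb, Rela and Nfkb2 thus had nearly as many peaks in replicate 3, whereas Nfkbia and Tnfaip3 had few of theirs.

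Densities also counted overlapping calls separately. Per 100 kb, Tnfaip3 had 18.3 peaks in replicate 2, at percentile 99.7 of all protein-coding loci with the same flank. In replicate 3 it had 2.61, at percentile 68.7. Nfkbia had 11.6 (percentile 96.0) in replicate 2 and 2.91 (percentile 74.1) in replicate 3. Relb had 9.74 (percentile 92.6) in replicate 2 and 8.93 (percentile 99.5) in replicate 3. The medians over all loci were 2.97 in replicate 2 and 1.498 in replicate 3. Nfkb1 (2.90 and 0.967) and Rel (2.98 and 1.49) were near or below them. The gene-rich surroundings of Relb, Rela and Nfkb2 held 8, 5 and 6 other protein-coding genes, whereas no other protein-coding gene lay within 50 kb of Nfkbia or Tnfaip3.

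**Figure D2:**
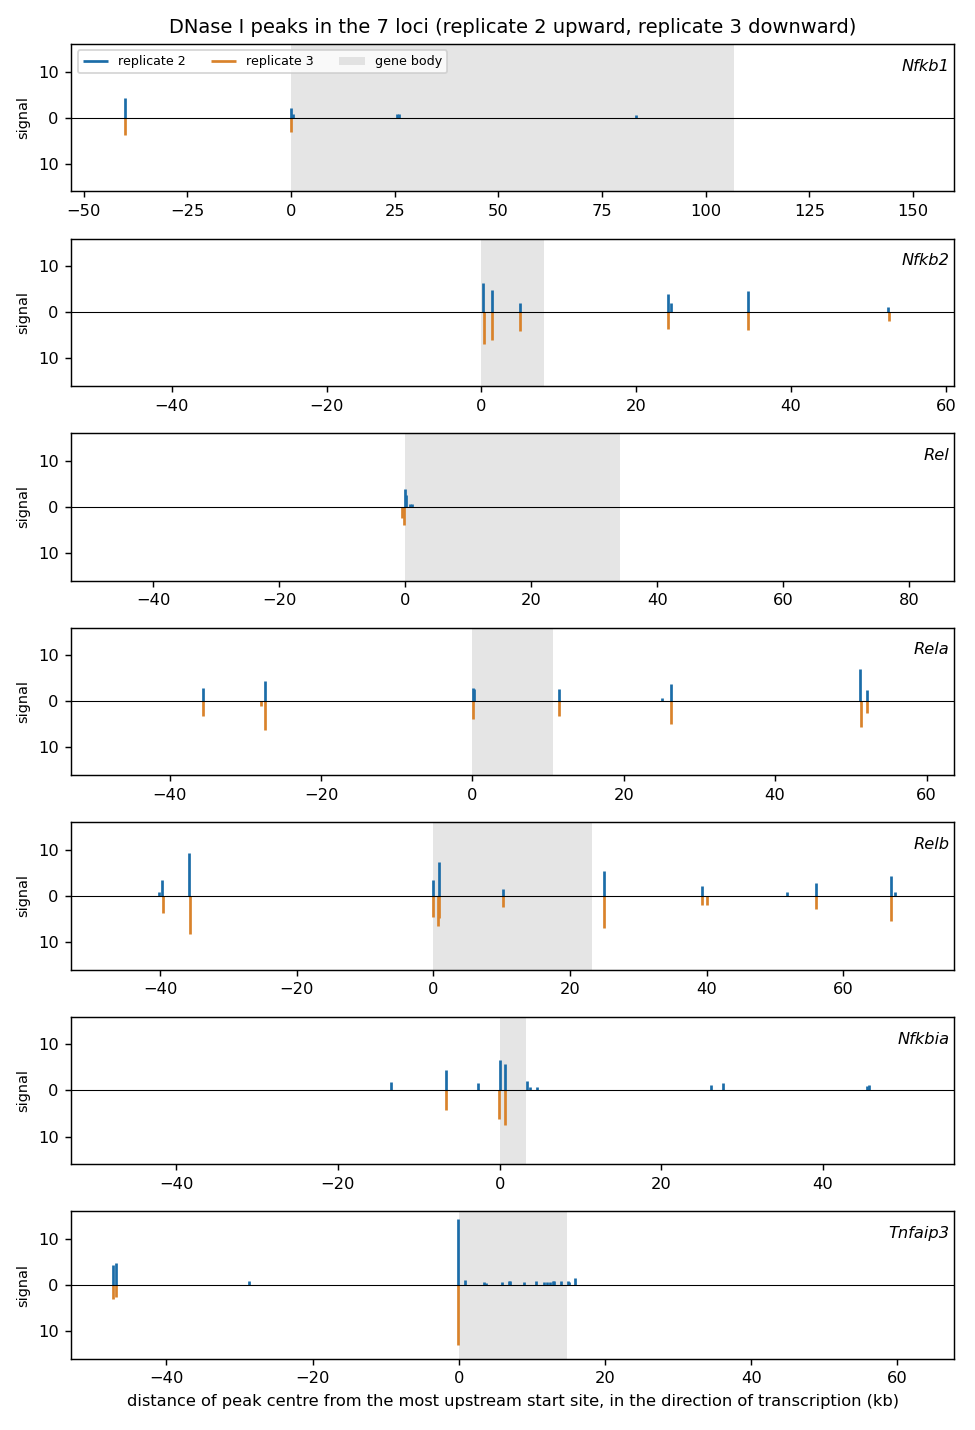
Stricter peaks of the 7 loci by distance of the peak centre from the most upstream start site (horizontal axis, kb, positive in the direction of transcription) and signal (vertical axis, the authors' units, replicate 2 drawn upward and replicate 3 downward), with the gene body shaded. Relb, Rela and Nfkb2 show matching peaks in both libraries, and Tnfaip3 shows a row of low peaks over its body in replicate 2 alone.

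The places of the peaks were counted over the 7 loci together. In replicate 2, 33 of the 71 peaks lay in a promoter window, 18 of them of the 7 genes and 15 of neighbouring genes. A further 10 overlapped a coding exon, 1 an untranslated exon, 7 an intron and 20 lay between genes. In replicate 3, 25 of 35 lay in promoter windows (12 of the 7 genes, 13 of neighbours), 1 in a coding exon, 3 in introns and 6 between genes. Over all peaks, 16360 of 38223 lay in a promoter window in replicate 2 and 10418 of 17061 in replicate 3. Each locus was drawn around a gene and so holds that gene's promoter windows by construction. None of the members' promoter peaks fell in the promoter window of another protein-coding gene.

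The strongest other peaks at Relb and Rela belonged to neighbours' promoters, and at Nfkb2 to neighbours' promoters and an exon of the gene itself. At Relb they were those of Clptm1 (9.27 in replicate 2 and 8.31 in replicate 3), Clasrp (5.42 and 6.91) and Ppp1r37 (4.33 and 5.51). At Rela they were the window shared by Map3k11 and Pcnx3 (7.04 and 5.51), Kat5, which encodes an acetyltransferase (4.33 and 6.19), and Sipa1 (3.88 and 4.92). The Map3k11 and Clptm1 peaks exceeded the promoter peaks of Rela and Relb themselves in both libraries. At Nfkb2 they were Cuedc2 (4.66 and 3.84), Fbxl15 (3.87 and 3.66) and a peak over a coding exon of Nfkb2 itself, chr19:46309161-46309360 (1.98 and 3.97), which was the lowest of these 3 in replicate 2 and the highest in replicate 3.

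Intergenic sites were found in both libraries at Nfkb1, Nfkbia and Tnfaip3, and also at Rela and Relb. The Rela site, chr19:5648821-5649020, had 2.72 in replicate 2 and 3.07 in replicate 3. The Relb site, chr7:19668981-19669180, had 3.45 in replicate 2 and 3.66 in replicate 3. Nfkb1 had its strongest peak not at the promoter but 39.9 kb upstream, at chr3:135731401-135731580, with 4.36 in replicate 2 and 3.79 in replicate 3. That was above the Nfkb1 promoter in both libraries, and the site held 4 footprints in each. Its next peaks, in introns at chr3:135665835-135666215 (0.851) and chr3:135665481-135665662 (0.724), were listed in replicate 2 alone. Rel had no stricter peak outside its promoter window in either library.

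The inhibitor genes each had an upstream site found in both libraries. Nfkbia had a peak 6.62 kb upstream, chr12:55499161-55499380, with 4.43 in replicate 2 and 4.29 in replicate 3. Its 13.5 kb upstream peak, chr12:55506041-55506240, had 1.84 in replicate 2 and was in the permissive list alone of replicate 3, at 2.53. The peak just past the gene's end, chr12:55489141-55489380, had 1.98 in replicate 2 and no counterpart in either list of replicate 3. Tnfaip3 had a pair of neighbouring peaks 46.9 and 47.3 kb upstream. They were chr10:19062081-19062460 (4.82 in replicate 2 and 2.62 in replicate 3) and chr10:19062521-19062800 (4.37 and 3.03). Both were lower in replicate 3 and narrower there, and no replicate 2 peak between them and the promoter exceeded 0.858. At the 3' end, chr10:18999461-18999680 had 1.56 in replicate 2 alone.

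Peaks found in both libraries were the strong ones. Of the 71 locus peaks of replicate 2, 32 overlapped a stricter peak of replicate 3 (45.1%, Wilson 34.0 to 56.6%), against 42.5% of all replicate 2 peaks, and 36 (50.7%) overlapped a permissive one. Of the 35 of replicate 3, 33 were in replicate 2 (94.3%), against 95.7% of all. Shares of the members' loci were thus near those of the whole lists. Signals of 0.880 and 1.98 split all replicate 2 peaks into 3 equal parts. In the lowest part 0 of 25 locus peaks were found again, in the middle part 3 of 15, and in the highest part 29 of 31. Over all peaks the shares were 5.15%, 34.1% and 88.4%. The 39 peaks not found again had signals of 0.552 to 2.66 (median 0.806), and the 32 found again 1.22 to 14.3 (median 4.14).

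Tnfaip3 weighed on these counts. It supplied 21 of the 71 replicate 2 peaks, of which 3 were found in replicate 3, and without its locus the share was 29 of 50 (58.0%, Wilson 44.2 to 70.6%). The peaks responsible lay along the gene itself. Replicate 2 had 15 peaks over the body of Tnfaip3, which formed 12 regions once overlapping calls were merged. Of these peaks, 4 lay in a promoter window of the gene, the main promoter peak among them. The 14 peaks other than the main promoter peak had signals of 0.552 to 1.16 (median 0.739), between percentiles 9.68 and 46.1 of the replicate 2 list. None of the 14 overlapped a peak of even the permissive list of replicate 3. They were 76 to 827 bp wide, and 11 of them held 31 footprints in replicate 2. If a step is a tag, signals of this size would amount to 12.2 to 25.6 tags at the depth so implied for replicate 3. The weakest stricter peak of replicate 3 had a signal of 0.542, and 5% of its peaks lay below 1.17, close to the highest of the 14.

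In replicate 2 all peaks of the Tnfaip3 body (14.7 kb), the main promoter peak included, covered 32.1% of it. This was rank 1 among the 14078 protein-coding genes of 10 kb or more. The median gene had 0.393% and the 99th percentile was 5.41%. In replicate 3 the share was 1.63%, rank 634. This measure was chosen after its values were seen. Next in replicate 2 was Ccr7, a homing receptor of naive T cells, at 23.3%, with 0 in replicate 3. Stretches in the authors' list of positions with a false discovery rate up to 0.05 covered 59.2% of the Tnfaip3 body in replicate 2 (8732 bp, rank 2 after Ccr7 at 64.0%) and 3.15% in replicate 3 (465 bp, rank 869). The longer list of positions did not bring replicate 3 near replicate 2. The part of depth in this gap was not tested.

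The Tnfaip3 peaks lay more over exons than introns. Exons were those of protein-coding transcripts. All other bases of the gene body were counted as intron, including those upstream of the most upstream coding start site. In replicate 2, peaks covered 58.2% of the Tnfaip3 exon bases and 20.3% of its intron bases so counted. In replicate 3 the only body peak was the promoter peak, which covered 1.52% and 1.67%. The bases behind the 1.67% lay upstream of the coding start site and not between exons. At Ccr7 the split ran the other way in replicate 2, with 8.04% of exon and 26.6% of intron bases. In replicate 2 peaks also covered 8.43% of the 10 kb past the end of Tnfaip3. None of the other NF-kB genes of 10 kb or more had such coverage: it was 0.871% at Nfkb1, 2.80% at Rel, 3.55% at Rela and 2.14% at Relb in replicate 2, and 0.156%, 0, 2.61% and 3.52% in replicate 3. Among shorter genes, in which the promoter peaks take a larger share, Nfkbia had 12.6% and 9.48% and Nfkb2 7.69% and 8.98%.

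**Figure D3:**
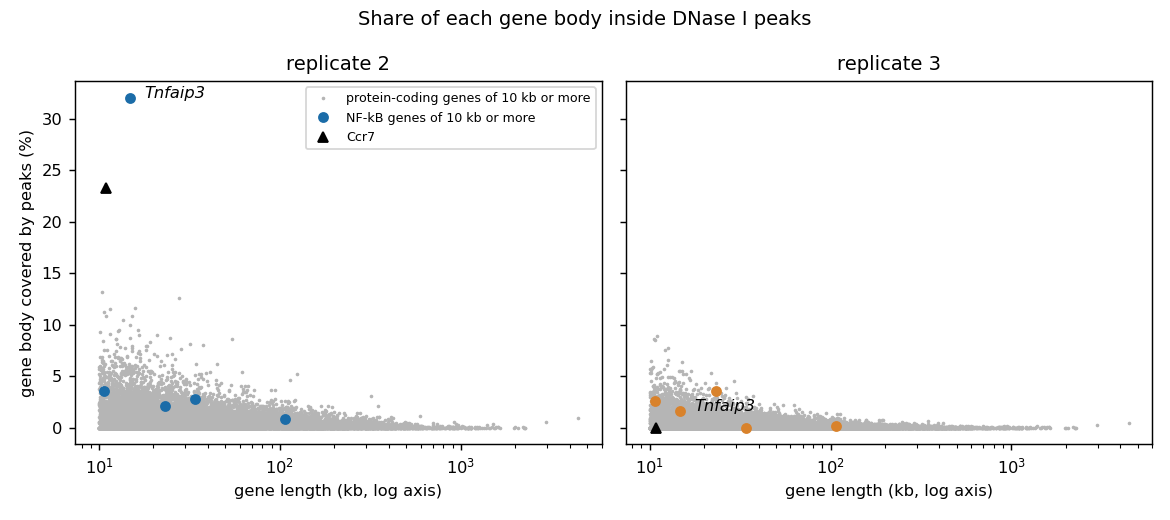
Percent of each gene body inside stricter peaks (vertical axis) against gene length (horizontal log axis, kb) in replicate 2 (left) and replicate 3 (right), for protein-coding genes of 10 kb or more (grey), the NF-kB genes among them (coloured) and Ccr7 (triangle). Tnfaip3 stands at 32.1% in replicate 2 and at 1.63%, among the other genes, in replicate 3.

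**Figure D4:**
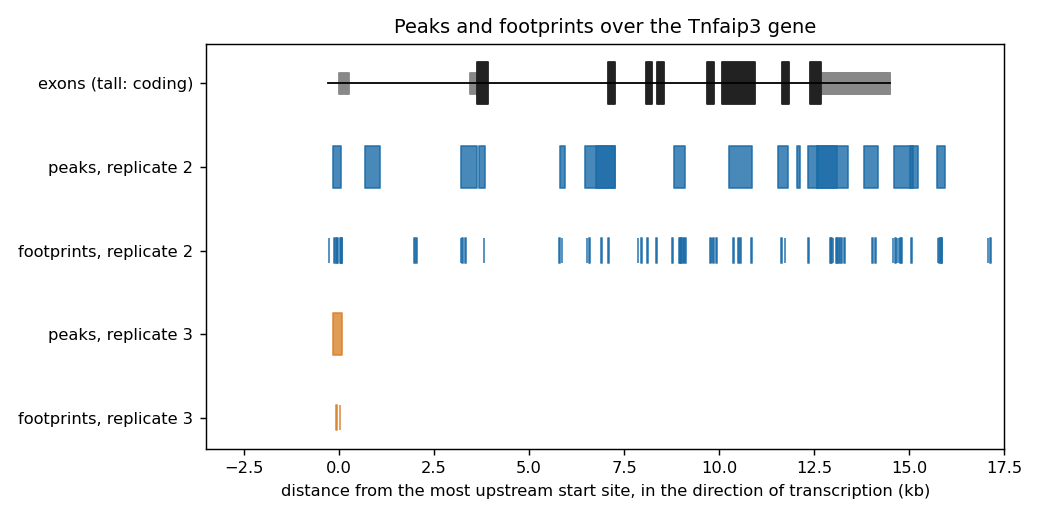
Exons, stricter peaks and footprints over Tnfaip3 by distance from the most upstream coding start site (kb, positive in the direction of transcription), replicate 2 above replicate 3. Replicate 2 has 15 peaks along the gene and replicate 3 has the promoter peak alone.

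Footprints are runs of a few bases that DNase I left uncut within accessible DNA. The 7 loci held 299 in replicate 2 and 83 in replicate 3, of which 207 and 75 lay in stricter peaks, with a median width of 9 bp in both libraries. Per kb of peak there were 11.6 in replicate 2 and 9.89 in replicate 3, against 13.4 and 8.11 over all peaks. At least 1 footprint lay in 62 of 71 peaks in replicate 2 and 30 of 35 in replicate 3. The same share over all peaks was not counted, so these counts cannot be set against a background. By locus, replicate 2 had 81 at Tnfaip3, 57 at Relb, 51 at Nfkbia, 39 at Rela, 33 at Nfkb2 and 19 each at Nfkb1 and Rel. Replicate 3 had 5, 25, 10, 21, 14, 5 and 3 in that order, so Tnfaip3 was highest in replicate 2 and shared the second lowest count in replicate 3.

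Matches to the stringent kappaB form occurred in the promoter peaks of 3 of the 7 genes, Nfkb1, Nfkb2 and Nfkbia, the same 3 in both libraries. Over all genes with a promoter peak, 2.39% of 11019 in replicate 2 and 1.57% of 8924 in replicate 3 had one. The wider consensus matched in 6 of 7 in both libraries, all but Rela, against 16.1% of genes in replicate 2 and 11.3% in replicate 3. The members' promoter peaks summed to 300 to 1246 bp per gene in replicate 2 (median 520, against 310 over all genes). Among the 6460 genes with a similar summed length the shares were 3.03% for the stringent and 20.1% for the wider form. In windows of 300 bp around promoter peaks of replicate 2, counted per peak and not per gene, the shares were 1.58% and 12.6%. Both strands were searched, and matches of the 2 forms overlap. That kappaB sites occur in several of these promoters is textbook knowledge and was known when the genes were chosen.

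Nfkbia was the single gene with a pair of stringent matches in its promoter peaks, printed above. The match inside the gene, chr12:55491957-55491966, overlapped a footprint in both libraries, by 5 bases in replicate 2 and 6 in replicate 3. The match centred at -24 relative to the start site, chr12:55492667-55492676, overlapped none, with the nearest footprint 38 bp away in replicate 2 and 98 bp in replicate 3. At Rel the overlapping wider matches at -86 met a footprint in replicate 2 by 1 or 2 bases, and in replicate 3 met none. At Tnfaip3 the wider match at -120 met a footprint in replicate 2, and the match at -8 met none in either library.

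Over the 7 loci, 2 of 7 stringent matches in replicate 2 peaks overlapped a footprint (28.6%, Wilson 8.22 to 64.1%), against 27.4% of 478 in all replicate 2 peaks. The second of these lay in an intron of Tnfaip3 at chr10:19008836-19008845, in a peak of signal 0.948 that also reached a coding exon. For the wider form it was 6 of 19 (31.6%), against 30.4% of 3600. In replicate 3 it was 2 of 4 stringent matches, against 17.6% of 176, and 3 of 18 wider ones (16.7%), against 16.3% of 1566. Apart from the 4 matches of replicate 3, the shares in the loci were close to those over all peaks.

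Other motifs were counted in the same way in replicate 2. The KLF/SP box GGGCGG was in the promoter peaks of 7 of 7 members in replicate 2, against 73.4% of genes, or 82.5% of those of similar length. The ETS core CCGGAAG was in 0 of 7, against 25.6%. E-boxes (CACGTG) were in 2 of 7, against 14.2%, at Relb and Tnfaip3. AP-1 matches (TGANTCA) were in 2 of 7 in replicate 2, Rel and Tnfaip3, against 5.40%, and in replicate 3 at Tnfaip3 alone. The NRF1 consensus matched at Rela, against 9.48% of genes, RUNX (TGTGGT) at Rel, against 15.0%, and CRE (TGACGTCA) at Relb, against 4.96%. CTCF, IRF and TCF/LEF (ATCAAAG) forms matched in none, against 2.38%, 3.40% and 2.40%. A match describes the letters in these windows and no more.

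The rest of the pathway was read from a list of 59 genes in 7 groups. Of these, 36 (61.0%) had a promoter peak in both libraries, 12 in replicate 2 alone, 0 in replicate 3 alone and 11 in neither. The background for both libraries was 40.9%. By group the share ran from 0 among receptors to 100% among kinases and brakes.

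Both the kinases and the brakes were complete, with 9 of 9 and 8 of 8 genes in both libraries. Among the kinases, Map3k14, the kinase of the non-canonical arm, had 9.76 in replicate 2 and 8.58 in replicate 3, Chuk, a catalytic subunit of the IkB kinase, had 7.52 and 5.24, and Map3k7, the kinase upstream of it, had 5.50 and 5.28. Among the brakes, Tnip1, a binding partner of the Tnfaip3 product, had 7.67 and 10.3. The deubiquitinases Otulin (6.52 and 8.09) and Cyld (7.92 and 6.96) followed. Each of these 6 promoters was lower than Tnfaip3 in both libraries. In the IkB family 4 of 5 had a peak in both, among them Nfkbie (8.60 and 10.6), Nfkbib (8.05 and 5.19) and the nuclear member Nfkbid (4.75 and 5.10).

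The arm from the antigen receptor had 2 of 4 in both libraries and 2 in replicate 2 alone. The adaptor Bcl10 had 10.2 in replicate 2 and 8.40 in replicate 3, and the paracaspase Malt1 had 6.92 and 5.78. Prkcq, a kinase that acts upstream of them, had 1.19 in replicate 2 and no peak in either list of replicate 3. Of 12 receptor adaptors and ubiquitin ligases, 9 had a peak in both and 3 in replicate 2 alone. The highest were Sharpin (8.65 and 7.05), a subunit of the linear ubiquitin ligase, Traf2 (7.71 and 6.96) and Traf5 (6.21 and 7.81).

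All 11 genes without a peak in either library were receptors or inducible targets. Of 9 receptors 0 had one in both, 3 in replicate 2 alone (percentiles 6.49 to 19.1) and 6 in neither, among them Cd40, Il1r1 and Ltbr. Of 12 inducible targets, 4 had a peak in both libraries, 3 in replicate 2 alone and 5 in neither. Those in both included the survival gene Bcl2l1 (9.53 and 8.31), Irf1 (8.08 and 7.81) and Sod2 (3.93 and 6.05). Ccl2, Il2 and Il6, which encode secreted mediators, were in neither.

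**Figure D5:**
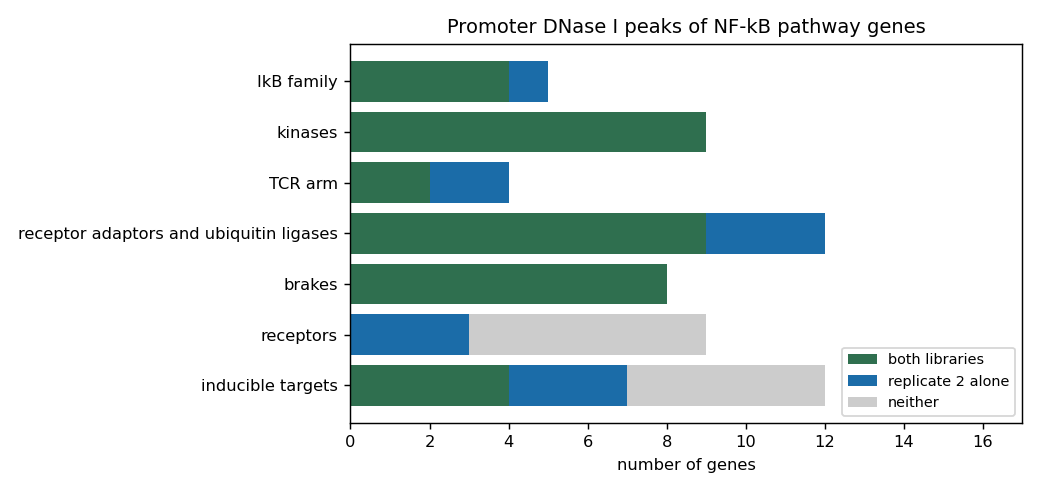
Number of genes (horizontal axis) in each of 7 pathway groups with a promoter peak in both libraries, in replicate 2 alone or in neither. All 9 kinases and all 8 brakes have a peak in both libraries, and none of the 9 receptors does.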

How the data were processed

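DNase-seq was analysed from the lists the authors deposited for 2 libraries of 1 group. Per the notes deposited with the libraries, each list was made from the alignments of its own library on mm10, without pooling (aligner and callers not given in the sources used here). A signal per peak stands in the authors' lists, and its scaling is not stated. The authors' list of q-values (false discovery rates up to 0.05 per stretch of positions) and footprint intervals were used as deposited. Values are the strongest peak per promoter window (1000 bp either side of protein-coding start sites). Overlap was 1 bp or more. Percentiles were taken within a library among genes with a promoter peak. Shares carry Wilson 95% intervals, for counting error only. The members and the gene and motif lists were chosen with earlier results of these data known. In each locus, the member's strongest promoter peak and the 3 strongest stricter peaks outside its promoter windows were named. Further promoter peaks at Nfkb1, Rela, Relb and Tnfaip3 were not all named. From each pathway group, the 3 genes of highest mean promoter percentile holding a peak in both were named, and up to 3 holding none, taken alphabetically, plus the 3 genes nearest in percentile to Nfkbia and Tnfaip3. Other pathway genes, the gene-body coverage and the single kappaB matches described were chosen after their values were seen. The peak lists overlap themselves: 1133 of 38223 peaks in replicate 2 and 318 of 17061 in replicate 3 overlap another peak of the same list. In the 7 loci this held for 11 of 71 peaks in replicate 2 and 2 of 35 in replicate 3. Overlap, coverage and motif steps were tested on simulated data. Python 3.11.15, pandas 2.3.3, numpy 2.4.6, scipy 1.17.1, pysam 0.24.0 and samtools 1.23.1 were used. Alternatives were other lists, windows, flanks, overlaps, motif forms and single libraries.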

Additional observations from a re-analysis of the deposited data

How the results depend on the processing

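No paired analysis was possible because there is a single group of 2 libraries. All 7 genes kept a promoter peak in both libraries under every alternative except an overlap of 50% of each peak, where 6 did. Wider or narrower flanks moved the counts by construction: with 10 kb and 0 kb flanks the loci held 44 and 34 peaks in replicate 2 and 17 and 12 in replicate 3, and 180 and 125 footprints in replicate 2 and 36 and 26 in replicate 3, and a flank of 100 kb gave 54 peaks in replicate 3. With equal numbers of the strongest peaks in each library (17061), replicate 2 had 38 locus peaks, of which 81.6% were found in replicate 3, against 79.0% of all peaks so chosen. Without the Tnfaip3 locus, an alternative chosen after seeing the data, the share was 58.0%. The wider kappaB form raised the genes with a match to 6 and the matches over a footprint to 6, and extending footprints by 10 bp gave 4. The median promoter signal of the 7 genes was 6.58 over both libraries and 4.998 with a 500 bp window. It was 6.24 to 6.46 with 1 library left out. Under the 500 bp window Nfkbia loses its inner peak in both libraries (mean signal 6.34), and Relb in replicate 2 alone (mean signal 4.998). Depth is known for neither library, so what it limits cannot be given, and with 2 libraries an SD rests on a single difference.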
